A study of Mus musculus with 50 samples.

Results

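The livers of pregnant CD-1 mice given the low dose of PFOA were compared directly with those of dams given the low dose of GenX. The members were chosen by their labels: the 5 maternal arrays of low PFOA and the 5 maternal arrays of low GenX, 10 of the 50 arrays of the series. PFOA was given at 1 mg/kg per day (PFOA1 below) and GenX at 2 mg/kg per day (GenX2), by daily oral gavage from embryonic day 1.5 to 17.5. Livers were taken on gestational day 17.5, when a piece of the left lateral lobe was frozen, and the dams called control received the vehicle alone. Higher doses of both compounds (5 mg/kg per day of PFOA and 10 mg/kg per day of GenX, 5 dams each) and the livers of fetuses from these litters complete the series, and all dams were pregnant, so no group shows a liver outside pregnancy. Because the low dose of GenX was higher than that of PFOA, compound and dose cannot be told apart in any difference given here, and only this 1 pair of low-dose groups was compared. Liver RNA was hybridised to whole-transcript arrays, and each value is the log2 of a normalised probe-set intensity, so a difference of 1 is a change of 2-fold. A gene was counted as above background on an array when it exceeded the 95th percentile of that array's negative control probes. This percentile lay between 7.46 and 7.68 on these 10 arrays. Of the 30743 genes tested, 5883, 6442, 5928, 5462 and 6435 were above background on PFOA1 replicates 1 to 5. On GenX2 replicates 1 to 5 the counts were 7016, 6761, 6508, 5955 and 6844. Array medians were 5.28, 5.26, 5.30, 5.34 and 5.27 in PFOA1 and 5.20, 5.23, 5.24, 5.33 and 5.20 in GenX2. A positive difference means higher in GenX2, and a gene is described as called when its Benjamini-Hochberg adjusted p over all 30743 genes was under 0.05 in limma's moderated test (two-sided), fitted on all 25 maternal arrays. With each array centred on its median, 52 of the called genes named here kept their call, 3 lost it and 8 other named genes gained one. The part of this array-wide shift in the differences of single genes was otherwise not tested.

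PFOA is a perfluorinated carboxylic acid whose carbon chain is unbranched, whereas GenX, the dimer acid of hexafluoropropylene oxide, is a shorter, branched perfluorinated ether acid made as its replacement. Both resemble fatty acids closely enough to activate PPARα, the nuclear receptor that pairs with RXR and switches on fatty acid transport and oxidation in hepatocytes. In rodent liver the genes it induces encode the peroxisomal and mitochondrial β-oxidation enzymes, the microsomal Cyp4a hydroxylases that start ω-oxidation, acyl-CoA thioesterases and lipid-droplet proteins, and peroxisomes multiply. The receptors CAR and PXR, which induce drug-metabolising cytochromes such as Cyp2b10 and Cyp3a11, also respond to perfluorinated acids in mouse liver.

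In these groups 3 arrays stood apart. PFOA1 replicate 1 lay at the level of the control arrays: its mean over the 27 measured peroxisomal oxidation genes was −0.08 on the log2 scale relative to the control mean, against 0.42 to 0.63 on the other PFOA1 arrays. GenX2 replicate 1 had the highest mean over the same genes, 1.28, and the most extreme value of its group for many single genes. GenX2 replicate 4 received an array weight of 0.304, the lowest of the 25 maternal arrays, from limma's estimate of how closely each array follows its group. The main counts and most of the leading genes are therefore given with all arrays and again without PFOA1 replicate 1.

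GenX2 livers carried more transcript for fatty acid oxidation than PFOA1 livers, in both the mitochondrial and the peroxisomal pathway. Acot3 and Acot2, thioesterase genes of these lists, were 3.05-fold and 2.5-fold higher in GenX2, and Pdk4, Acot1 and Retsat, from the list of other PPAR-responsive lipid genes, were 3.88-fold, 2.69-fold and 2.54-fold higher. Without PFOA1 replicate 1 these became 2.59-fold for Acot3, 1.89-fold for Acot2, 2.72-fold for Pdk4, 1.94-fold for Acot1 and 1.85-fold for Retsat. Txnip, an inhibitor of thioredoxin and of glucose uptake, was 1.94-fold higher in GenX2 with no overlap between arrays, while PFOA1 lay at the control level. A smaller set was lower in GenX2, among them the trefoil factor Tff3, the apolipoprotein gene Apoa4, the growth-restraining gene Phlda2 and Apcs, which encodes serum amyloid P. Cyp2b10 and the other CAR and PXR targets did not pass the test in either direction.

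Of 30743 genes, 191 were called (0.621%): 156 higher in GenX2 (0.507%) and 35 lower (0.114%), and 4427 had an unadjusted p under 0.05. Without PFOA1 replicate 1 the count was 124 (0.403%), 91 higher and 33 lower, and 104 genes were called both ways. The count depended on other single arrays as well. It was 100 without PFOA1 replicate 2, 83 without PFOA1 replicate 4, 91 without GenX2 replicate 1, 83 without GenX2 replicate 2 and 86 without GenX2 replicate 3, and it rose to 1192 without GenX2 replicate 4. Of the 191 genes, 53 (45 higher and 8 lower) were called with each of the 10 arrays left out in turn, always within the fit of all maternal groups. Arrays of the groups did not overlap for 151 of the 191 called genes and overlapped for 40; over all genes tested, 348 (1.13%) were separated with GenX2 higher and 282 (0.917%) with GenX2 lower, or 476 (1.55%) and 499 (1.62%) without PFOA1 replicate 1. At least 1.5-fold differences were found for 62 of the called genes, 53 higher and 9 lower. The split between higher and lower was 156 to 35 here and moved with the processing. It was 235 to 19 when each array was centred on its median and 143 to 27 with quantile normalisation repeated. It was 242 to 19 when only genes above background on at least 5 of the 25 maternal arrays were tested. A gene high in 1 group alone can pass that filter, so this last split is partly set by it. Fitted on the 10 arrays alone, with the spread estimated from these groups only, 4 genes were called: Txnip and Lpin2 higher, Tff3 and Phlda2 lower. The 10-array fit without PFOA1 replicate 1 called 7, namely Pdk4, Acot3, Txnip, Lpin2 and Mir1931 higher and Tff3 and Apoa4 lower.

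**Figure D1:**
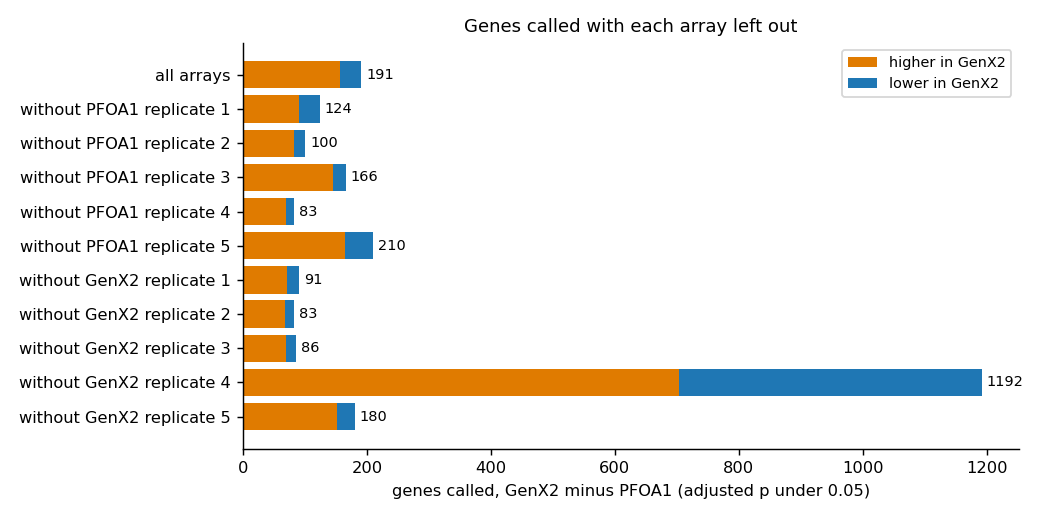
Number of genes called between GenX2 and PFOA1 maternal liver (horizontal axis, adjusted p under 0.05) with all arrays and with each array left out in turn (rows); the bars are stacked by direction, orange for higher in GenX2 and blue for lower. The total runs from 83 to 210 for every array left out except GenX2 replicate 4, without which it is 1192.

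The same groups were set against the vehicle controls, which both comparisons share, so the values are given side by side only. Against control, 10 genes were called in PFOA1 (0.0325%), with 1563 at an unadjusted p under 0.05, and 1036 in GenX2 (3.37%). Without PFOA1 replicate 1 the PFOA1 count was 127 (0.413%). It was 2 without PFOA1 replicate 2, 1 without PFOA1 replicate 3, 1 without PFOA1 replicate 4 and 2 without PFOA1 replicate 5. It was also 2 without control replicate 1, 3 without control replicate 3, 2 without control replicate 4 and 3 without control replicate 5, whereas the GenX2 count rose to 2432 without GenX2 replicate 4. The 9 genes called higher in PFOA1 included Scd1 and Scd3, fatty acid desaturases, Ehhadh, Cyp4a32, Pdk4, Fabp5, the phospholipid transfer protein gene Pltp and the predicted genes Gm2814 and Gm6166, and Tbc1d9 was called lower (0.00325% of all genes). Scd1 rose by 1.13 on the log2 scale in PFOA1 (adjusted p = 0.00189) and by 1.50 in GenX2 (adjusted p = 1.43e-06), and the direct difference of 0.37 between the treated groups (95% interval 0.06 to 0.67) did not pass the test (adjusted p = 0.266).

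Peroxisomal β-oxidation shortens very long-chain and dicarboxylic fatty acids. All 27 measured genes of the list had a positive difference, as had 12253 of all 30743 genes tested. The list held 1 gene below background on every array of both groups, against 22988 among all genes, so these shares compare unlike genes. Of the 27, 10 were called higher, where 0.507% of all genes were, and 0 lower. The median difference was 0.48 on the log2 scale against −0.03 over all genes tested. Without PFOA1 replicate 1, 10 were again called, where 0.296% of all genes were, and the median was 0.37. The count was 7 without GenX2 replicate 1, 7 without GenX2 replicate 3 and 15 without GenX2 replicate 4, and also 15 without PFOA1 replicate 5. Against control, 21 of the 27 were called higher in GenX2 (2.43% of all genes were) and 1 in PFOA1 (0.0293%), or 13 in PFOA1 without its replicate 1 (0.309%). List means on the PFOA1 arrays, replicates 1 to 5, were −0.08, 0.42, 0.56, 0.51 and 0.63 relative to the control mean, and those on the GenX2 arrays were 1.28, 0.92, 0.98, 0.75 and 0.81, so the lowest GenX2 array lay above the highest PFOA1 array.

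Acot3, Acot4 and their neighbours encode acyl-CoA thioesterases, which release free fatty acids from their CoA esters. Acot3 read 6.53, 7.44, 8.08, 7.64 and 7.62 on the PFOA1 arrays and 8.83, 9.19, 9.58, 8.89 and 8.87 on the GenX2 arrays. Every GenX2 array was above every PFOA1 array, and replicate 1 was the lowest PFOA1 array, just below the control range of 6.58 to 7.05. The log2 difference was 1.61 (95% interval 1.22 to 1.99, adjusted p = 0.000131), a 3.05-fold higher level on arrays of which 2 of 5 in PFOA1 and 5 of 5 in GenX2 were above background; without PFOA1 replicate 1 it was 1.37 (adjusted p = 3.22e-05). Acot4, which encodes a thioesterase for dicarboxylic acyl-CoAs, read 7.07, 7.68, 7.96, 8.02 and 8.06 in PFOA1 and 9.14, 8.65, 9.02, 8.56 and 8.71 in GenX2. These values did not overlap, and the difference of 1.06 (adjusted p = 0.00352) was 0.88 without PFOA1 replicate 1 (adjusted p = 0.00354).

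Pex11a, a membrane protein that promotes peroxisome division, read 7.04, 7.89, 8.35, 8.11 and 8.26 in PFOA1 and 9.77, 8.78, 9.39, 8.86 and 8.47 in GenX2. The groups did not overlap, GenX2 replicate 1 was highest, and the difference was 1.12 (adjusted p = 0.0138; 0.90 and adjusted p = 0.0304 without PFOA1 replicate 1). Acaa1b, a peroxisomal thiolase that catalyses the last step of the cycle, was 0.97 higher (adjusted p = 0.044), and missed the threshold without PFOA1 replicate 2 (adjusted p = 0.0834), GenX2 replicate 1 (0.149), GenX2 replicate 2 (0.0861) or GenX2 replicate 3 (0.0871). Its PFOA1 replicate 1, at 9.11, lay among the controls (8.95 to 9.49), and its GenX2 replicate 1, at 12.04, was the highest array. Crat, which transfers acetyl groups from CoA to carnitine, was higher by 0.68 (adjusted p = 0.0102; 0.56 and adjusted p = 0.0254 without PFOA1 replicate 1). Acaa1a (0.69), Eci2 (0.73), Hsd17b4 (0.48), Pex19 (0.50) and Ech1 (0.64), a second thiolase, an enoyl-CoA isomerase, the D-bifunctional protein, a chaperone for peroxisomal membrane proteins and a dienoyl-CoA isomerase, made up the 10 called genes together with Acot3, Acot4, Crat, Pex11a and Acaa1b. Ech1 was no longer called without PFOA1 replicate 1 (adjusted p = 0.0663), PFOA1 replicate 2 (0.073), PFOA1 replicate 4 (0.0532), GenX2 replicate 1 (0.105), GenX2 replicate 2 (0.0794) or GenX2 replicate 3 (0.0577), and Pex19 without GenX2 replicate 1 (0.0579) or GenX2 replicate 3 (0.0631).

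Ehhadh, the peroxisomal bifunctional enzyme of the classical PPARα response, gave a different picture with and without the array at control level. It read 10.54, 11.94, 12.18, 12.29 and 12.36 in PFOA1 and 12.95, 12.70, 12.78, 12.55 and 12.61 in GenX2, against 10.36 to 10.59 in control. All GenX2 arrays were above all PFOA1 arrays, and PFOA1 replicate 1 alone was at the control level. With all arrays the difference was 0.85 (95% interval 0.43 to 1.27) and missed the threshold (adjusted p = 0.053); without PFOA1 replicate 1 the difference was smaller, 0.52, and passed it (adjusted p = 0.00617). It also passed without PFOA1 replicate 3 (0.0481), PFOA1 replicate 5 (0.0261) or GenX2 replicate 4 (0.0326). Against control Ehhadh was higher by 1.39 in PFOA1 (adjusted p = 0.00745) and by 2.24 in GenX2 (adjusted p = 7.77e-07).

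PPARα with RXR binds the DR1 element, a direct repeat of half-sites, and promoters of called genes were searched for it because many PPARα targets were among the genes called. The element AGGTCA, 1 base of any kind, AGGTCA was searched on both strands, with at most 2 mismatches in its 12 fixed letters, from 250 bases before to 50 after each RefSeq start (build GRCm38.p6). A gene was counted as holding a match when any of its promoter entries did. This was so for 4.4% of the 27025 genes with a promoter entry. Among the 156 genes called higher, 123 had an entry and 10 of these held a match (8.13%), as did 1 of 23 of those called lower (4.35%). Acot4, on the plus strand at chr12:84038129-84038378, Plin2, on the minus strand at chr4:86670060-86670309, and Cyp2d40, on the minus strand at chr15:82764123-82764372, are given 5′ to 3′ over the 250 bases before the start, with the match in capitals. They are those of the 11 called genes with a match that the naming rule includes, that were above background and that hold the match before the start; Acot4 and Plin2 were called higher and Cyp2d40 lower.
Acot4: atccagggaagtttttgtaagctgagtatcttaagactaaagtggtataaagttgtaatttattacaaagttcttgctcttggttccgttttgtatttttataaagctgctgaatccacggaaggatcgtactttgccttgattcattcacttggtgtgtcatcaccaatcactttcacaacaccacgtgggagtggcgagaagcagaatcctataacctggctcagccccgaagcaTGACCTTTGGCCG
Plin2: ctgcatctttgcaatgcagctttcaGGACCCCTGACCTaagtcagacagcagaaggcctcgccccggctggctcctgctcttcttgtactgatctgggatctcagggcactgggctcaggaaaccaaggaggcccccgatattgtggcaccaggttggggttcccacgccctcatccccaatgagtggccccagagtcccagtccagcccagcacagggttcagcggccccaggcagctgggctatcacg
Cyp2d40: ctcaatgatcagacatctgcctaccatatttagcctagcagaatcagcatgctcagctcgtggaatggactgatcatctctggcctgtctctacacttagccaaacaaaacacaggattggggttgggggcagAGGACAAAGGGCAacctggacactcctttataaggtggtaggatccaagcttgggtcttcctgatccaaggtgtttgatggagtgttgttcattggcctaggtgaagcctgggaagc
In Acot4 the match ends at the base before the start and lies on the opposite strand to the gene; the match in Plin2 also lies on the opposite strand, 225 bases before the start, and the marked match in Cyp2d40, with 2 mismatches, lies on the strand of the gene, 117 bases before it. Cyp2d40 also holds a closer match, with 1 mismatch, on the opposite strand after the start, outside the bases printed. A match is a description of these letters, not a site of binding, and promoters without one can hold other forms of the element or carry it elsewhere.

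Mitochondrial β-oxidation burns long- and medium-chain fatty acids. Of the 20 measured genes, 14 were called higher, where 0.507% of all genes were, and 0 lower. All 20 had a positive difference, as had 12253 of all 30743 genes tested, and the median was 0.54 against −0.03 over all genes tested. As many as 22988 of all genes were below background on every array of both groups, against 0 of these 20. Without PFOA1 replicate 1, 10 were called (0.296% of all genes) with a median of 0.45. The count was 8 without PFOA1 replicate 2, 6 without GenX2 replicate 1, 8 without GenX2 replicate 2 and 9 without GenX2 replicate 3, where 6 of the 14 were lost and 1 other member was called. List means per array were −0.09, 0.29, 0.49, 0.43 and 0.55 in PFOA1 and 1.20, 0.91, 0.90, 0.71 and 0.79 in GenX2, again without overlap. Against control, 19 of the 20 were called higher in GenX2 (2.43% of all genes) and 0 in PFOA1, or 7 in PFOA1 without its replicate 1 (0.309%).

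**Figure D2:**
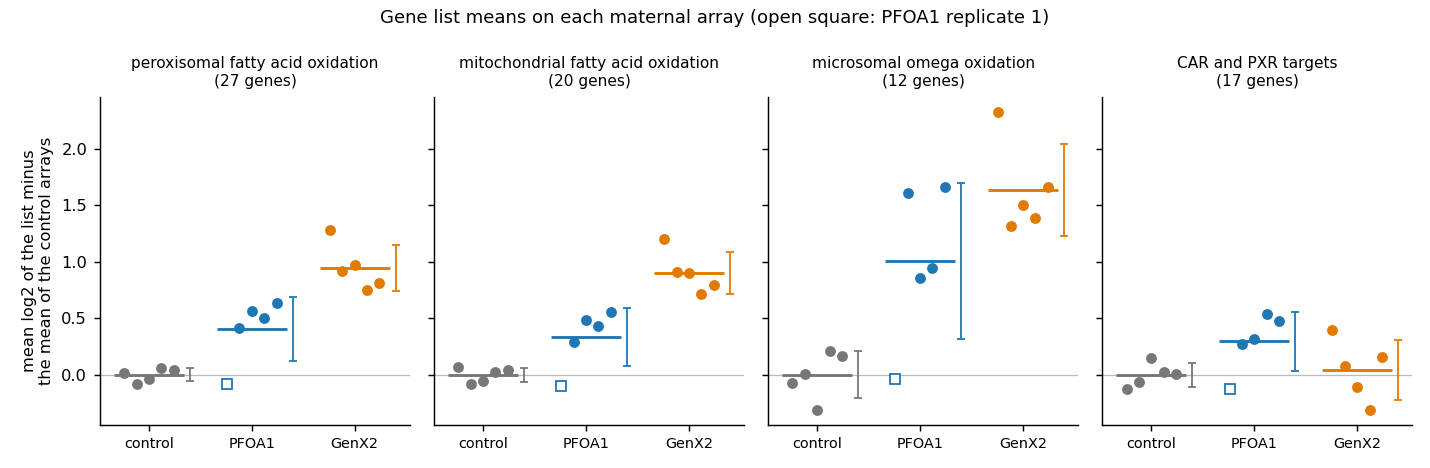
Mean log2 value of 4 gene lists on each maternal array, relative to the mean of the 5 control arrays (vertical axis), for control, PFOA1 and GenX2; points are arrays, lines group means, bars SD, and the open square is PFOA1 replicate 1. GenX2 arrays lie above all PFOA1 arrays for peroxisomal and mitochondrial oxidation, and the groups overlap for ω-oxidation and for CAR and PXR targets.

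Entry of fatty acids into the mitochondrion depends on carnitine. Slc22a5, the plasma-membrane carnitine transporter OCTN2, read 6.65, 6.9998, 7.34, 7.53 and 7.87 in PFOA1 and 9.01, 8.08, 8.40, 8.06 and 8.04 in GenX2. No arrays overlapped, 1 of 5 PFOA1 arrays and 5 of 5 GenX2 arrays were above background, and the difference was 1.04 (adjusted p = 0.0117; 0.88 and adjusted p = 0.033 without PFOA1 replicate 1). Cpt2, the inner-membrane carnitine palmitoyltransferase, was higher by 0.68 (95% interval 0.46 to 0.91, adjusted p = 0.00595; 0.57 and adjusted p = 0.0116 without PFOA1 replicate 1), with PFOA1 at 9.13 to 9.84 and GenX2 at 10.01 to 10.57. Slc25a20, the carnitine-acylcarnitine carrier, was higher by 0.68 (adjusted p = 0.045), called with 3 of the 10 arrays left out, and lost without PFOA1 replicate 1 (0.0663), PFOA1 replicate 2 (0.101), PFOA1 replicate 4 (0.0596) or GenX2 replicates 1 (0.139), 2 (0.0987), 3 (0.109) or 5 (0.0639). Cpt1a, the outer-membrane enzyme that controls the rate of entry, had separated arrays (9.61 to 10.32 in PFOA1, 10.39 to 10.80 in GenX2) and a difference of 0.44 that missed the threshold (adjusted p = 0.082; 0.0477 without GenX2 replicate 4).

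Inside the mitochondrion, Acot2, a thioesterase, read 8.87, 10.46, 11.02, 10.88 and 11.14 in PFOA1 and 12.27, 11.61, 11.88, 11.73 and 11.50 in GenX2. PFOA1 replicate 1 fell within the control range of 8.84 to 9.38, and the groups did not overlap. The difference was 1.32 (adjusted p = 0.0203), or 0.92 without that array (adjusted p = 0.00873), and was lost without GenX2 replicate 1 (adjusted p = 0.0681) or GenX2 replicate 3 (0.055). Acyl-CoA dehydrogenases, which open each cycle, were higher by 0.37 for Acadvl (adjusted p = 0.00905), 0.55 for Acadm (0.0138), 0.58 for Acadl (0.0203) and 0.53 for Acad11 (0.0203). The trifunctional protein subunits Hadha and Hadhb were higher by 0.49 (adjusted p = 0.0138) and 0.65 (adjusted p = 0.0238). Hadh, the medium- and short-chain hydroxyacyl-CoA dehydrogenase, differed by only 0.29, yet its arrays were separated (10.60 to 10.77 in PFOA1, 10.94 to 11.09 in GenX2, adjusted p = 0.0138). The auxiliary enzymes for unsaturated chains Eci1 and Decr1 and the electron carrier Etfdh were also called, at 0.72, 0.65 and 0.44.

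Without PFOA1 replicate 1, 4 of the 14 lost their call: Acad11 (adjusted p = 0.0589), Hadhb (0.0572), Etfdh (0.0663) and Slc25a20 (0.0663). Leaving out GenX2 replicate 1 removed Acot2 (0.0681), Decr1 (0.0681), Acad11 (0.0561), Acadl (0.0683), Eci1 (0.0745), Hadhb (0.0683), Etfdh (0.0982) and Slc25a20 (0.139). Without PFOA1 replicate 2, Decr1 (0.0596), Acad11 (0.0514), Acadl (0.0519), Hadhb (0.0596), Etfdh (0.0738) and Slc25a20 (0.101) were not called. GenX2 replicate 2 decided Decr1 (0.0597), Acadl (0.0574), Eci1 (0.0693), Hadhb (0.0815), Etfdh (0.0861) and Slc25a20 (0.0987). GenX2 replicate 3 decided Acot2 (0.055), Decr1 (0.057), Acadl (0.0577), Hadhb (0.0712), Etfdh (0.0789) and Slc25a20 (0.109). PFOA1 replicate 4 decided Acad11 (0.0511) and Slc25a20 (0.0596), and GenX2 replicate 5 decided Slc25a20 (0.0639). Cpt2, Acadvl, Slc22a5, Hadha, Hadh and Acadm were called with each of the 10 arrays left out.

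**Figure D3:**
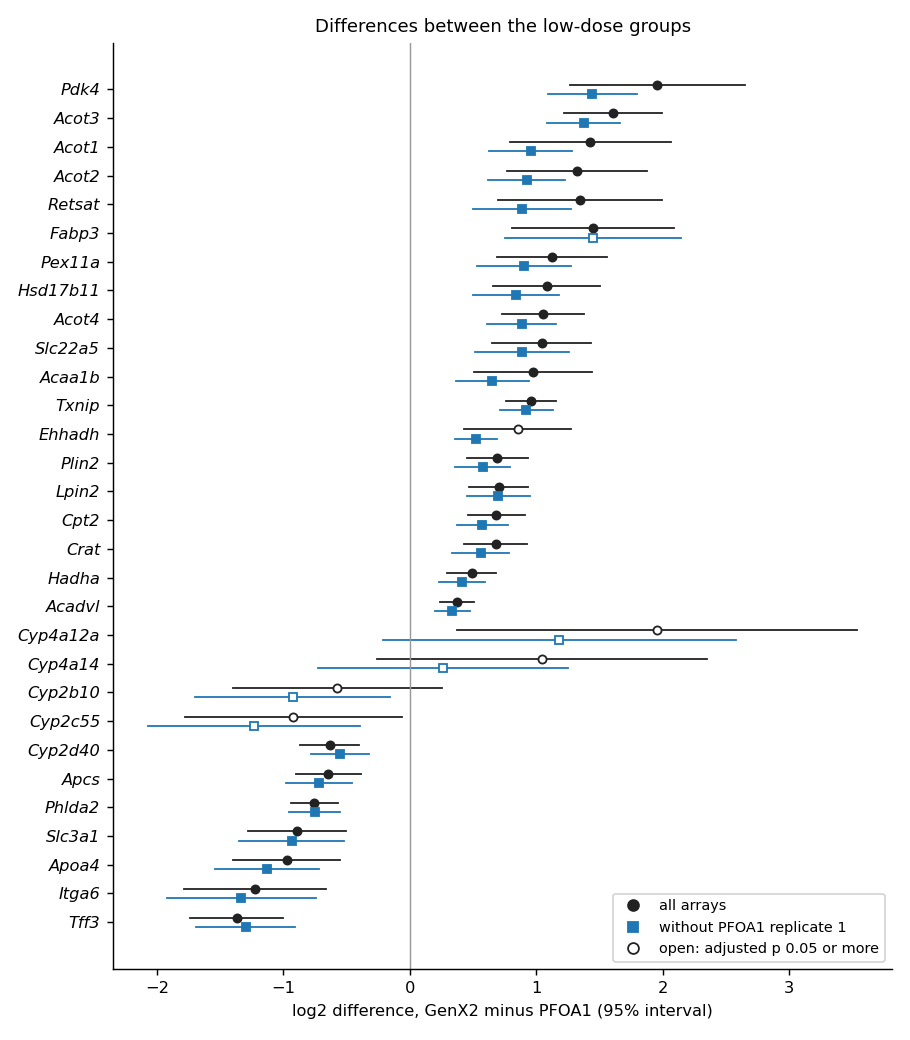
Log2 difference between GenX2 and PFOA1 for single genes (horizontal axis, 95% interval as a line) with all arrays (black circles) and without PFOA1 replicate 1 (blue squares); filled symbols have an adjusted p under 0.05. Pdk4, Acot3 and Txnip keep filled symbols both ways, Ehhadh is filled only without that array, and the Cyp4a and Cyp2b10 symbols are open both ways.

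Genes of lipid handling that respond to PPARα had 6 of 34 called higher, where 0.507% of all genes were, and 0 lower (median difference 0.28), and 4 without PFOA1 replicate 1 (0.296% of all genes, median 0.23). The count was 3 without PFOA1 replicate 2, 3 without PFOA1 replicate 4, 3 without GenX2 replicate 1, 2 without GenX2 replicate 2, 2 without GenX2 replicate 3 and 11 without GenX2 replicate 4. Pdk4, the kinase that shuts off pyruvate dehydrogenase and spares glucose, read 7.11, 9.73, 9.72, 9.47 and 9.78 in PFOA1 and 11.01, 11.17, 11.25, 11.11 and 11.05 in GenX2, against 6.93, 7.08, 6.73, 7.51 and 7.90 in control. All GenX2 arrays lay more than 1 log2 unit above the highest PFOA1 array, and PFOA1 replicate 1 was among the controls. The difference was 1.96 (95% interval 1.26 to 2.65), a 3.88-fold higher level (adjusted p = 0.00809), and 1.44 without PFOA1 replicate 1 (2.72-fold, adjusted p = 0.000146). Pdk4 was called with each of the 10 arrays left out.

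Fabp3, a fatty acid-binding protein better known from heart, read 7.27, 7.22, 7.06, 6.87 and 7.95 in PFOA1 and 6.998, 8.99, 9.92, 8.75 and 8.95 in GenX2. GenX2 replicate 1 stayed at the PFOA1 and control level, so the groups overlapped, and 1 of 5 PFOA1 and 4 of 5 GenX2 arrays were above background. The difference of 1.45 passed the test with all arrays (adjusted p = 0.0272) and missed it without PFOA1 replicate 1 (1.45, adjusted p = 0.0572), PFOA1 replicate 2 (0.0661), PFOA1 replicate 3 (0.0577), PFOA1 replicate 4 (0.0935) or GenX2 replicates 2 (0.0861), 3 (0.0837) or 5 (0.0586). Acot1, the cytosolic thioesterase, read 7.51, 9.77, 9.91, 9.85 and 9.98 in PFOA1 and 11.42, 10.52, 10.92, 10.68 and 10.62 in GenX2. Its groups were separated, with a difference of 1.43 (adjusted p = 0.0276; 0.95 and adjusted p = 0.0116 without PFOA1 replicate 1) that was lost without GenX2 replicate 1 (0.0978), GenX2 replicate 2 (0.0509) or GenX2 replicate 3 (0.0755). Acot1 to Acot4 are close paralogs, and signal shared between their probes was not tested.

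Retsat, which saturates retinol, was higher by 1.34 (adjusted p = 0.0457; 0.89 and adjusted p = 0.0381 without PFOA1 replicate 1), with PFOA1 at 8.03, 10.00, 10.64, 10.18 and 10.47 and GenX2 at 12.07, 11.06, 11.24, 10.90 and 10.78. Here too the arrays did not overlap and PFOA1 replicate 1 sat just below the control range of 8.07 to 8.80; the call was lost without PFOA1 replicate 2 (0.0834), PFOA1 replicate 4 (0.0764), GenX2 replicate 1 (0.153), GenX2 replicate 2 (0.0902) or GenX2 replicate 3 (0.1). Plin2, which coats lipid droplets, was higher by 0.69 (95% interval 0.45 to 0.93, adjusted p = 0.00789; 0.58 and adjusted p = 0.0165 without PFOA1 replicate 1) and was called with each array left out. Mgll, which cleaves monoacylglycerol, was higher by 0.58 (adjusted p = 0.049) and was lost without PFOA1 replicates 1 (0.101), 2 (0.0918) or 4 (0.11) and without GenX2 replicates 1 (0.158), 2 (0.0966) or 3 (0.109). The fatty acid translocase gene Cd36 (0.58, adjusted p = 0.207) and the pantetheinase gene Vnn1 (0.82, adjusted p = 0.204) did not pass, and were 0.34 (adjusted p = 0.339) and 0.40 (adjusted p = 0.263) without PFOA1 replicate 1.

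Outside the lists, Txnip had the smallest adjusted p of the comparison. It read 8.62, 8.87, 9.11, 8.52 and 8.67 in PFOA1, 9.58, 9.68, 9.65, 9.66 and 10.00 in GenX2, and 8.71, 8.58, 8.61, 8.81 and 8.84 in control. PFOA1 spanned the control range, with replicate 1 inside it, and all GenX2 arrays were above both. The difference was 0.96 (95% interval 0.76 to 1.15, adjusted p = 1.2e-05) and 0.92 without PFOA1 replicate 1 (adjusted p = 5.02e-05). Against control it was 0.05 in PFOA1 (adjusted p = 1) and 1.00 in GenX2 (adjusted p = 9.11e-07). Hsd17b11, a short-chain dehydrogenase of lipid droplets, was higher by 1.08 (adjusted p = 0.0138; 0.84 and adjusted p = 0.0264 without PFOA1 replicate 1) with GenX2 replicate 1 highest at 10.94 and the other GenX2 arrays at 9.96 to 10.15. Ddah1, which degrades methylarginine inhibitors of nitric oxide synthase, was higher by 1.04 (adjusted p = 0.0274), and this call was lost without PFOA1 replicate 1 (0.0707), PFOA1 replicate 2 (0.0877), PFOA1 replicate 4 (0.0549) or GenX2 replicate 3 (0.0612). Scnn1g, a sodium channel subunit, was called (adjusted p = 0.0138) although below background on all arrays of both groups, and Il1rn, the interleukin-1 receptor antagonist, was called (adjusted p = 0.015; 0.0547 without GenX2 replicate 2) with 0 of 5 PFOA1 arrays and 1 of 5 GenX2 arrays above background, so neither receives a fold.

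**Figure D4:**
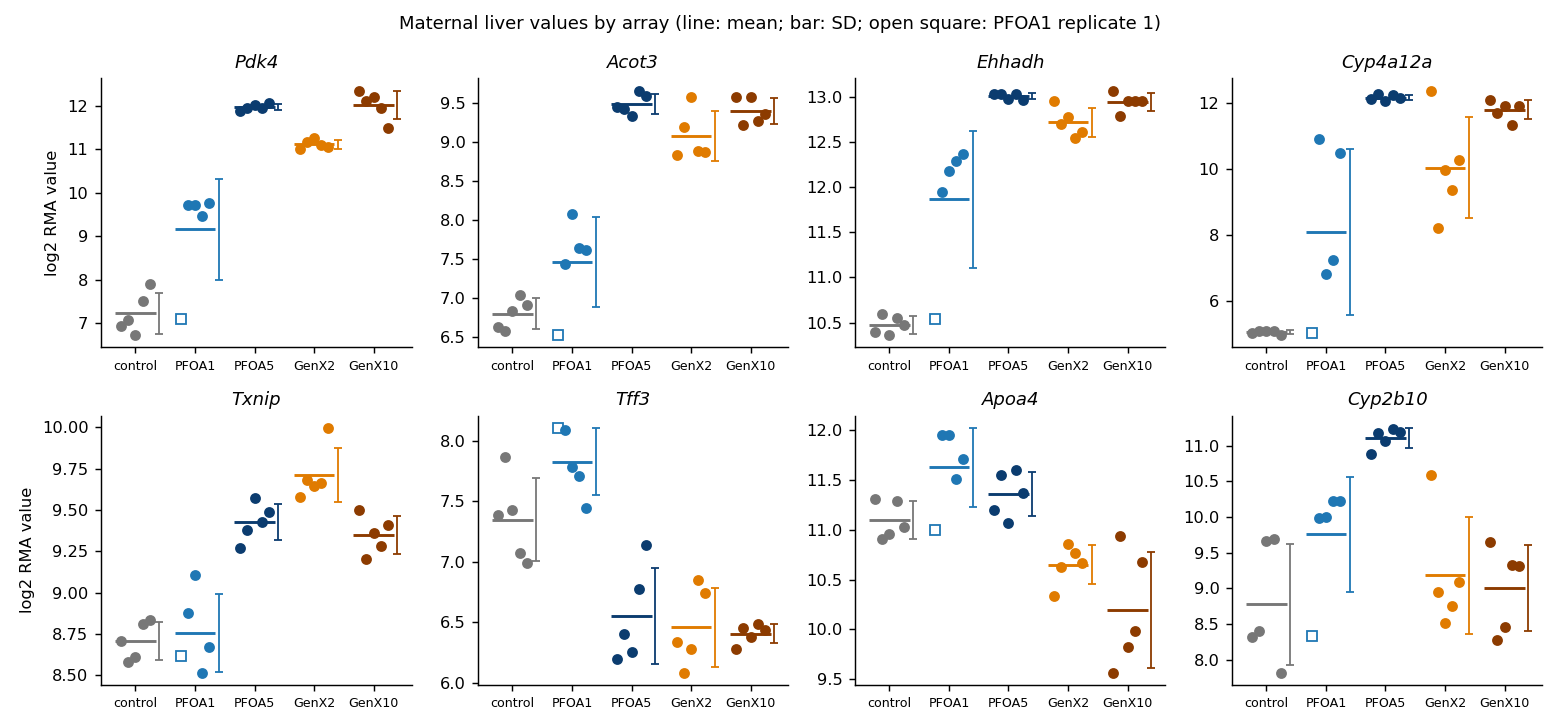
Log2 values of 8 genes on the 25 maternal arrays (vertical axis) in control, PFOA1, PFOA5 (PFOA at 5 mg/kg per day), GenX2 and GenX10 (GenX at 10 mg/kg per day); points are arrays, lines means, bars SD, and the open square is PFOA1 replicate 1. Pdk4, Acot3 and Txnip are separated between PFOA1 and GenX2, Cyp4a12a and Cyp2b10 overlap, and Tff3 and Apoa4 are higher in PFOA1.

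Microsomal ω-oxidation, in which Cyp4a enzymes hydroxylate the far end of the fatty acid, had 0 of 12 measured genes called, against 0.621% of all genes tested; 1 was called without PFOA1 replicate 5 (Aldh3a2) and 3 without GenX2 replicate 4 (Aldh3a2, Cyp4f15 and Cyp4f17). The list's median difference was 0.52, and 0.31 without PFOA1 replicate 1. List means overlapped: −0.04, 1.61, 0.85, 0.95 and 1.67 in PFOA1 and 2.33, 1.32, 1.50, 1.39 and 1.66 in GenX2. Whether the difference is smaller here than in the β-oxidation lists was not tested. Cyp4a14, the isoform most responsive to PPARα activators in female mice, read 8.55, 12.39, 12.41, 12.51 and 12.55 in PFOA1 and 12.997, 12.74, 12.67, 12.56 and 12.68 in GenX2. PFOA1 replicates 2 to 5 were just below the GenX2 arrays and replicate 1 was in the control range of 6.03 to 10.25. Its difference was 1.05 with all arrays (95% interval −0.26 to 2.35, adjusted p = 0.451) and 0.26 without replicate 1 (adjusted p = 0.816).

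Cyp4a12a, an arachidonic acid hydroxylase that is normally male-predominant, varied widely between dams of 1 group. It read 5.01, 10.92, 6.82, 7.23 and 10.48 in PFOA1, 12.39, 8.21, 9.97, 9.38 and 10.28 in GenX2 and 4.95 to 5.09 in control. Both groups spread over several log2 units, 2 of 5 PFOA1 arrays were above background, and the values overlapped. The difference of 1.95 had an interval of 0.37 to 3.53 and did not pass (adjusted p = 0.258), and the related Cyp4a12b had 1.91 (adjusted p = 0.253). These were 1.18 (adjusted p = 0.424) and 1.20 (adjusted p = 0.412) without PFOA1 replicate 1. Cyp4a32, at 0.78 (adjusted p = 0.167) and 0.40 without PFOA1 replicate 1 (adjusted p = 0.184), had separated arrays, and Aldh3a2, the fatty aldehyde dehydrogenase of the pathway, had 0.70 (adjusted p = 0.0633; 0.0232 without PFOA1 replicate 5 and 0.0208 without GenX2 replicate 4). Cyp4a members are close paralogs, so their probes may share signal.

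Ketone synthesis, with 5 measured genes, had 0 called in either direction, where 0.621% of all genes were called. Acat1, which makes acetoacetyl-CoA, came closest with separated arrays and a difference of 0.36 (adjusted p = 0.053, but 0.0427 without PFOA1 replicate 2 and 0.0285 without GenX2 replicate 4). Fgf21, the fasting hormone induced through PPARα, read 7.64, 9.75, 8.90, 7.97 and 8.92 in PFOA1 and 6.93, 8.04, 7.60, 8.39 and 7.50 in GenX2. The values overlapped, and the difference of −0.94 did not pass (adjusted p = 0.272).

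Triglyceride and fatty acid synthesis had 3 of 22 measured genes called higher, where 0.507% of all genes were, and 0 lower (median 0.32), and 1 without PFOA1 replicate 1 (0.296% of all genes). The count was 1 without PFOA1 replicates 2 or 4 or GenX2 replicates 1 or 3, and 5 without GenX2 replicate 4. Lpin2, a phosphatidate phosphatase that makes diacylglycerol, read 8.14, 8.13, 8.13, 8.17 and 8.14 in PFOA1, 9.04, 8.62, 9.04, 8.83 and 8.68 in GenX2 and 7.50 to 8.10 in control. PFOA1 arrays were almost identical to each other, replicate 1 included, and all GenX2 arrays were above them. The difference was 0.70 (95% interval 0.47 to 0.93, adjusted p = 0.00595), the same without PFOA1 replicate 1 (0.70, adjusted p = 0.0133), and Lpin2 was called with each array left out. Gpam, which acylates glycerol 3-phosphate, was higher by 0.55 (adjusted p = 0.0425), and was called only without GenX2 replicate 4 or GenX2 replicate 5 among the 10 arrays left out, with adjusted p values of 0.0605 to 0.0985 otherwise. Mogat1, a monoacylglycerol acyltransferase, was called (adjusted p = 0.0335) but was below background on every array of both groups, and lost its call without PFOA1 replicates 1 (0.0824), 2 (0.093) or 4 (0.0902) or GenX2 replicates 1 (0.108) or 3 (0.109).

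Cholesterol synthesis and uptake had a positive difference for all 19 measured genes (median 0.23, and 0.25 without PFOA1 replicate 1), as had 12253 of all 30743 genes. Here 0 of the 19, but 22988 of all 30743, were below background on every array of both groups, so the shares compare unlike genes. Of the 19, 1 was called higher, where 0.507% of all genes were. The count was 0 without GenX2 replicate 1 or GenX2 replicate 3 and 2 without GenX2 replicate 4. The called gene was Hsd17b7, a 3-ketosteroid reductase of the pathway, which read 8.01, 8.33, 8.29, 8.52 and 8.58 in PFOA1 and 9.09, 8.90, 9.04, 8.78 and 8.73 in GenX2. Its arrays were separated, with a difference of 0.56 (adjusted p = 0.0153; 0.0509 without GenX2 replicate 1 and 0.0508 without GenX2 replicate 3). Fdps (0.40, adjusted p = 0.108; 0.0191 without GenX2 replicate 4) and Fdft1 (0.25, adjusted p = 0.196), which build farnesyl diphosphate and squalene, did not pass. In bile acid and organic anion transport, 1 of 17 measured genes was called higher, where 0.507% of all genes were. The number called in either direction was 0 without GenX2 replicate 2, 2 without PFOA1 replicate 5 or GenX2 replicate 4 and 3 without GenX2 replicate 5. Among these Slc22a7 was called lower in GenX2. Its difference was −0.99 without PFOA1 replicate 5 (adjusted p = 0.048) and −1.06 without GenX2 replicate 5 (adjusted p = 0.0258). The called gene Abcg5, a sterol exporter, was higher by 0.60 (adjusted p = 0.0153, and 0.0509 without GenX2 replicate 2), and by 0.50 without PFOA1 replicate 1 (adjusted p = 0.042). Its partner Abcg8 had 0.48 (adjusted p = 0.162), and Abcc3, an organic anion exporter, had 1.13 with a wide interval of 0.51 to 1.75 (adjusted p = 0.0902; 0.0481 without GenX2 replicate 5), or 0.82 without PFOA1 replicate 1 (adjusted p = 0.164).

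**Figure D5:**
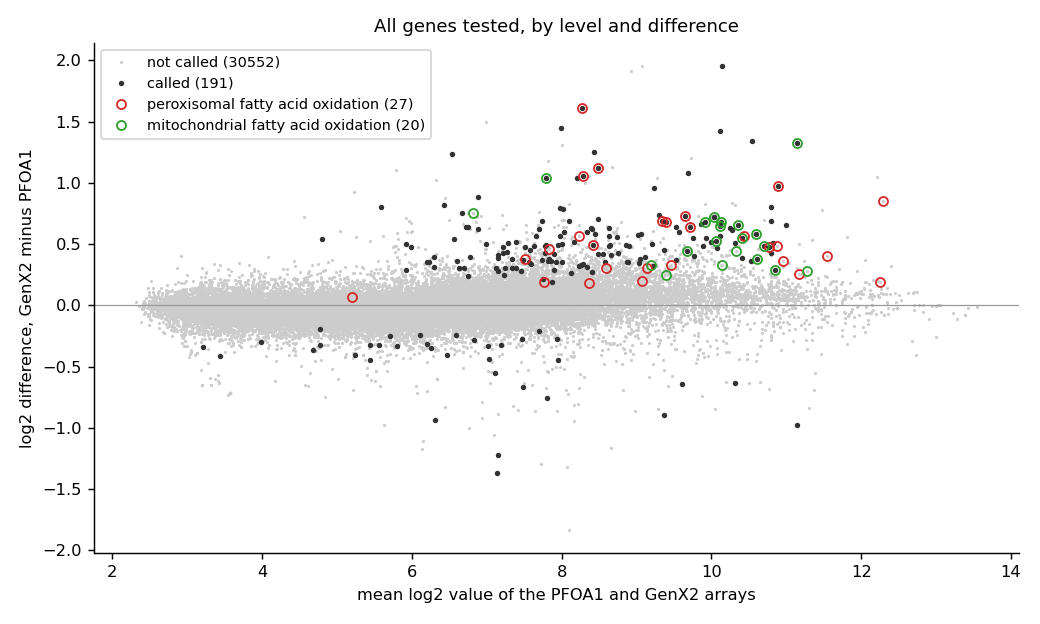
Log2 difference between GenX2 and PFOA1 (vertical axis) against the mean log2 value of those 10 arrays (horizontal axis) for the 30743 genes tested; grey points were not called, dark points were the 191 called, and circles mark members of the peroxisomal (red) and mitochondrial (green) oxidation lists. List members lie above 0 and mostly at middle to high levels.

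Genes lower in GenX2 were fewer. Of the 35 called, 23 were below background on every array of both groups, against 23 of the 156 called higher and 22988 of all 30743 genes, and 3 belonged to a gene list. Tff3, a secreted trefoil peptide of mucosal and hepatobiliary repair, read 8.10, 8.09, 7.78, 7.71 and 7.44 in PFOA1, 6.33, 6.08, 6.27, 6.84 and 6.74 in GenX2 and 7.38, 7.87, 7.42, 7.07 and 6.99 in control. GenX2 arrays were below all others, and PFOA1 overlapped control. The measured difference was −1.37 (SE 0.18, adjusted p = 0.00051) and −1.30 without PFOA1 replicate 1 (adjusted p = 0.00286). Because 0 of 5 GenX2 arrays were above background, PFOA1 was at least 1.24-fold higher, a bound set by the dimmest signal above background on each GenX2 array. Phlda2, an imprinted gene that restrains growth, read 8.18, 8.36, 8.21, 7.95 and 8.18 in PFOA1 and 7.24, 7.21, 7.49, 7.63 and 7.55 in GenX2. The groups did not overlap, with a difference of −0.76 (adjusted p = 0.000174; −0.75 and adjusted p = 0.000688 without PFOA1 replicate 1) and 2 of 5 GenX2 arrays above background.

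Apoa4, an apolipoprotein of triglyceride-rich particles, was the called lower gene with the clearest PFOA1 excess at a high level. It read 11.0005, 11.96, 11.96, 11.51 and 11.71 in PFOA1, 10.34, 10.63, 10.86, 10.77 and 10.67 in GenX2, and 11.31, 10.91, 10.96, 11.29 and 11.03 in control. GenX2 lay below control and PFOA1 replicates 2 to 5 above it, with replicate 1 inside the control range. The difference was −0.97 (adjusted p = 0.0254) and −1.13 without PFOA1 replicate 1 (adjusted p = 0.0133), and neither PFOA1 (0.53, adjusted p = 0.86) nor GenX2 (−0.45, adjusted p = 0.272) was called against control. The direct call was lost without PFOA1 replicates 2 (0.0789), 3 (0.0598) or 4 (0.0532) or GenX2 replicates 1 (0.0788) or 2 (0.0672). Apoa4 was the 1 lipoprotein gene called among 17 measured, where 0.114% of all genes were called lower. Counted in either direction, 3 of the 17 were called without GenX2 replicate 4, 2 without GenX2 replicate 5 and 1 other without PFOA1 replicate 3. In each of these settings Pltp was called higher in GenX2, by 0.82, 0.97 and 0.95. Angptl8 was called lower without GenX2 replicate 4.

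Apcs had a log2 difference of −0.64 (adjusted p = 0.0149), with PFOA1 at 9.63 to 10.37 and GenX2 at 8.91 to 9.52. It was called with each array left out, and was −0.72 without PFOA1 replicate 1 (adjusted p = 0.0133). Cyp2d40, a cytochrome P450 of the Cyp2d cluster, had 10.97, 10.75, 10.60, 10.37 and 10.52 in PFOA1 and 9.82, 10.35, 9.77, 9.97 and 10.13 in GenX2. The arrays of the groups were just separated, and the difference was −0.64 (adjusted p = 0.0102; −0.55 and adjusted p = 0.0304 without PFOA1 replicate 1). Slc3a1, part of the cystine transporter, was −0.89 (adjusted p = 0.0238; −0.94 and adjusted p = 0.0382 without PFOA1 replicate 1), lost without PFOA1 replicates 2 (0.078) or 4 (0.0536) or GenX2 replicates 2 (0.0556) or 3 (0.0513). Itga6, a laminin-binding integrin, was −1.22 (adjusted p = 0.0332) with 3 of 5 PFOA1 and 0 of 5 GenX2 arrays above background, so that PFOA1 was at least 1.2-fold higher. Its call held among the left-out arrays only without PFOA1 replicate 1 and without GenX2 replicate 4, with adjusted p values of 0.0518 to 0.106 otherwise. Ginm1 was −0.45 (adjusted p = 0.0188; 0.0596 without PFOA1 replicate 2 and 0.0626 without GenX2 replicate 1), and B3galt1, Nptx1, Ccne2, Panx1, Tssk3, Pde6c and Tex46 were called while below background on every array of both groups; Tssk3 and Pde6c were called with each array left out and the other 5 were not.

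The CAR and PXR targets had 0 of 17 measured genes called, where 0.621% of all genes were. Their median difference was −0.16, with 6 positive differences, where 12253 of all 30743 genes had one. Below background on every array of both groups was 1 of the 17, against 22988 of all 30743 genes. Without PFOA1 replicate 1 the median was −0.25, again with 0 called. Without GenX2 replicate 1 it was −0.22 with 1 called lower, Cyp2c54 (adjusted p = 0.026). List means were −0.12, 0.27, 0.31, 0.54 and 0.48 in PFOA1 and 0.40, 0.07, −0.11, −0.31 and 0.16 in GenX2. Cyp2b10, the marker target of CAR, read 8.34, 9.99, 10.00, 10.23 and 10.23 in PFOA1, 10.59, 8.96, 8.52, 8.76 and 9.09 in GenX2 and 8.33, 8.40, 9.66, 9.69 and 7.82 in control. In each treated group 1 array, replicate 1, went against the other 4: low in PFOA1 and high in GenX2. The difference was −0.57 (95% interval −1.40 to 0.25, adjusted p = 0.514) and −0.93 without PFOA1 replicate 1 (adjusted p = 0.268). Cyp2c55, another CAR and PXR target, had the same 2 arrays out of line (6.15 in PFOA1 and 8.31 in GenX2) and a difference of −0.92 (adjusted p = 0.317). Cyp3a11, the main PXR target, differed by −0.16 (95% interval −0.43 to 0.10, adjusted p = 0.568).

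Oxidative phosphorylation genes, which encode the respiratory chain, had 0 of 32 called, where 0.621% of all genes were. All 32 differences were positive, as were 12253 of all 30743, with a median of 0.25 (0.23 without PFOA1 replicate 1) against −0.03 over all genes. Below background on every array of both groups were 1 of the 32 but 22988 of all 30743, so these shares compare unlike genes. List means were 0.00, 0.04, 0.10, 0.05 and 0.09 in PFOA1 and 0.59, 0.29, 0.27, 0.09 and 0.23 in GenX2, with GenX2 replicate 1 highest and replicate 4 within the PFOA1 range. Without GenX2 replicate 4, 12 were called, where 1192 of all 30743 genes were, and without PFOA1 replicate 5, 1 was, Sdhd. Atp5a1, the α subunit of ATP synthase, had separated arrays and 0.28 (adjusted p = 0.0689; 0.0159 without GenX2 replicate 4). Cell cycle genes had 2 of 27 positive differences, where 12253 of all 30743 genes had one, and a median of −0.31. Of the 27, 1 was called lower, Ccne2, where 0.114% of all genes were, and 24 were below background on all arrays of both groups. The count was 0 without PFOA1 replicates 1, 4 or 5 or GenX2 replicates 1 or 3, and 3 without GenX2 replicate 4. Against control 17 of these were called lower in GenX2, where 0.937% of all genes were, and 0 in PFOA1. Acute phase proteins had 1 called higher (Il1rn) and 1 lower (Apcs) of 21, where 0.507% and 0.114% of all genes were. Their median was −0.26, and −0.14 without PFOA1 replicate 1. Of the 21, 0 were called higher without GenX2 replicate 2, and 3 were called lower without GenX2 replicate 5.

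Leaving out PFOA1 replicate 1 also brought in genes that were not called with it. Ehhadh, Grb7, Lpp, Nlk and Snhg5 had the largest positive differences of these. Grb7, a signalling adaptor, was 0.44 higher (adjusted p = 0.0363), and Lpp, a protein of cell adhesion sites, 0.36 higher (adjusted p = 0.0326). Leap2, a secreted antagonist of the ghrelin receptor, had a difference of −1.21 (adjusted p = 0.0389, against 0.0587 with all arrays), with 3 of 5 PFOA1 and 0 of 5 GenX2 arrays above background. No bound on the fold is given for Leap2, and its control arrays ran from 6.85 to 8.06. Klk14 and Cldn23 were lower and below background on every array of both groups, as Nlk and Snhg5 were in the other direction. Leap2 was also called without PFOA1 replicate 5 (0.0465), GenX2 replicate 1 (0.0354) or GenX2 replicate 4 (0.0434), and Grb7 without GenX2 replicate 4 (0.0474).

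Markers of the cell types that a liver piece can hold were examined the same way. Hepatocyte markers had a median difference of −0.02 over 13 genes, with 0 called, and their means relative to control ran from −0.10 to 0.08 in PFOA1 and from −0.23 to 0.10 in GenX2. Sinusoidal and vascular endothelial markers all had positive differences (11 of 11, median 0.13), as had 12253 of all 30743 genes. Below background on every array of both groups were 2 of the 11, against 22988 of all 30743 genes. Of these markers 0 were called, where 0.621% of all genes were. Their means ran from −0.17 to 0.11 in PFOA1 and from −0.18 to 0.44 in GenX2, highest on replicates 1 and 2. Macrophage (14), stellate and fibroblast (12), bile duct (6) and erythroid (6) markers had 0 called, with medians of −0.07, −0.08, −0.03 and −0.03. The neutrophil (10), lymphocyte (12) and fat, muscle or pancreas (8) markers were below background on every array of both groups, with 0 called. Their medians were −0.17, −0.04 and −0.10, with 9, 11 and 8 negative differences, where 18490 of all 30743 genes had one. Neutrophil list means ran from −0.21 to 0.07 in PFOA1 and from −0.40 to −0.23 in GenX2. The part of the endothelial shift in the other differences was not tested. In bulk liver, fewer cells of a type and less RNA per cell cannot be told apart.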

How the data were processed

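Whole-transcript mouse arrays measured RNA in 50 livers, 25 of them maternal. The deposited values are log2 intensities; RMA and the build mm10 are named per the submitters' processing notes, and the sources used here do not state whether all arrays were normalised jointly. Replicates are separate dams as far as the labels say. The p-values rest on a spread between dams estimated over all 5 maternal groups, control and higher doses included. Of the called genes named here, 4 kept their call and 51 lost it when only PFOA1 and GenX2 were fitted. Each gene was read from its brightest annotated probe set; 1534 probe sets with several genes were left out, and 30743 genes remained. Some genes of the lists are not reported here. Limma 3.58.1 (R 4.3.3) fitted 5 maternal groups, 5 arrays each, with empirical Bayes moderation, and Benjamini-Hochberg adjustment ran over all genes; tables and figures used Python 3.11.15, pandas 2.3.3, numpy 2.4.6 and matplotlib 3.10.9. The code was tested on simulated data.

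The groups, gene lists and rules were chosen with earlier results of these data known. Genes named were up to 15 with the largest called difference in each direction, up to 4 per list with the smallest p, fixed anchor genes, up to 5 per direction called only without PFOA1 replicate 1, and all called in PFOA1 against control. Members of the oxidation lists such as Hsd17b4, Acaa1a, Eci2, Pex19, Ech1, Hadh, Acadm, Decr1, Acad11, Acadl, Eci1, Hadhb, Etfdh and Slc25a20, and Mgll, fall outside the rule and were named because they were called, after their values were seen. A fold against a group below background on every array is given as a bound: the bright group's mean against, per array, the lowest signal above background. Alternatives were a 1.5-fold minimum, other variance moderation, a filter on dim genes, renewed quantile normalisation, median centring, probe means, array weights, other sample sets, a replicate block and each array left out. The labels state no pairing by replicate number. Deviations of same-numbered PFOA1 and GenX2 arrays correlated at −0.22, −0.11, −0.08, 0.04 and 0.20. So few pairs cannot decide whether same-numbered arrays shared a block.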

Additional observations from a re-analysis of the deposited data

Results flagged for a closer look

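Among 417 groups of 5 arrays examined (named genes and list means), 36 (8.63%) held an array that lay far from the others of its group relative to the group's range; chance flags about 1 in 20 independent groups, and these are not independent, since many of the genes move together and were named for their difference in this comparison. PFOA1 replicate 1 accounted for 17 of them and GenX2 replicate 1 for 12.

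On PFOA1 replicate 1 the low values were 9.11 for Acaa1b, 10.54 for Ehhadh, 8.46 for Acaa1a, 8.95 for Eci1, 8.55 for Cyp4a14, 10.22 for Cyp4a31, 9.61 for Cyp4a32, 7.11 for Pdk4, 7.51 for Acot1, 8.03 for Retsat, 8.22 for Vnn1, 9.26 for Cd36, 8.79 for Pltp, 7.65 for Abcg5, 8.28 for Abcg8 and 8.34 for Cyp2b10. The mean of the PPAR-responsive lipid handling genes on that array was −0.05 relative to the control mean. These genes span peroxisomal and mitochondrial oxidation, ω-oxidation, fatty acid handling and sterol export, and the array was the lowest of its group for each.

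On GenX2 replicate 1 the high values were 12.04 for Acaa1b, 10.48 for Ech1, 10.94 for Hsd17b11, 9.90 for Ddah1, 9.06 for Grb7, 7.31 for Leap2, 10.59 for Cyp2b10, 7.81 for Gsta2, a glutathione transferase, and 9.89 for Gsr, glutathione reductase. On the same array the monocarboxylate transporter gene Slc16a6 (8.35), the hepatocyte regulator Hnf4a (9.83) and the cytochrome P450 gene Cyp3a16 (9.09) were low.

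The remaining arrays apart were GenX2 replicate 5 for Txnip (10.00) and for Acox2, a bile acid and branched-chain oxidase (9.63), PFOA1 replicate 4 for Lpin2 (8.17, in a group that spans 8.13 to 8.17), PFOA1 replicate 2 for Slc3a1 (10.20), control replicate 1 for Cyp3a16 (11.48) and Tbc1d9 (7.51), and control replicate 5 for Cyp2c37 (10.96).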

How the results depend on the processing

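Of the 191 genes called between GenX2 and PFOA1, counts stayed within 1.5 times under an intensity trend, robust moderation, the dim filter, renewed quantile normalisation, centring and probe means (170 to 261). The count was 62 at a 1.5-fold minimum, 4 with only these groups fitted (3182 at an unadjusted p under 0.05), 491 with array weights and 412 with all 50 arrays fitted; leaving out 1 array gave 83 to 1192. Settings chosen after seeing the data gave 7 with only these groups and no PFOA1 replicate 1, 804 without PFOA1 replicate 1 and GenX2 replicate 4, and 513 with weights and without PFOA1 replicate 1. PFOA1 against control gave 0 in limma on those groups alone (1722 at an unadjusted p under 0.05), 25 with the dim filter, 16 with renewed normalisation, 38 with weights, 58 with all arrays fitted and 1 to 127 with 1 array left out. GenX2 against control gave 312 at a 1.5-fold minimum, 2610 with weights, 597 on those groups alone and 702 to 2432 with 1 array left out. With the replicate number as a block, though the labels state no pairing by it, the counts were 170, 8 and 990. Tbc1d9, not called between the treated groups, turned from −0.12 to 0.0130 without PFOA1 replicate 1, with all maternal groups or only these fitted, to 0.0416 without GenX2 replicate 4 as well, and to 0.0518 with weights; with 1 array left out it ran from −0.216 to 0.0130. The cause of these changes was not tested. With 5 arrays a group and many genes near background, small differences in dim genes were limited in precision, and fewer arrays or groups in a fit leave a less certain spread.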

Other observations

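Some of the genes called between the low-dose groups were also measured at the higher doses and in fetal liver, given here as lowest, median and highest values of 5 arrays. In dams, Pdk4 read 11.89, 11.96 and 12.07 with 5 mg/kg PFOA and 11.49, 12.10 and 12.35 with 10 mg/kg GenX. Acot3 read 9.33, 9.45 and 9.66 and 9.22, 9.35 and 9.58 in the same groups. Both genes therefore overlapped between compounds at the higher doses. Txnip read 9.27, 9.43 and 9.57 with 5 mg/kg PFOA and 9.20, 9.36 and 9.50 with 10 mg/kg GenX, below the low GenX arrays (9.58 to 10.00) in every dam. Tff3 read 6.19, 6.40 and 7.13 and 6.28, 6.43 and 6.48, and Phlda2 read 7.47, 7.64 and 7.80 and 7.35, 7.48 and 7.58. Apoa4 read 11.07, 11.37 and 11.60 with 5 mg/kg PFOA and 9.57, 9.98 and 10.94 with 10 mg/kg GenX, with no overlap. Fabp3 read 10.32, 10.60 and 10.73 and 10.32, 10.95 and 10.98, above every low-dose array.

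In fetal liver Tff3 read 7.90, 8.73 and 9.45 in control, 7.58, 7.83 and 8.58 with low PFOA and 6.47, 6.83 and 7.11 with low GenX, so the low-dose groups did not overlap there either. Phlda2 read 8.08, 8.40 and 8.61 in control, 7.49, 8.07 and 8.41 with low PFOA and 7.17, 7.55 and 7.71 with low GenX. Pdk4 read 8.29, 8.75 and 9.03 in fetal control, 10.35, 10.90 and 10.95 with low PFOA and 11.06, 11.18 and 11.52 with low GenX. Txnip read 9.15, 9.42 and 10.53 in fetal control, 9.80, 10.66 and 11.14 with low PFOA and 10.68, 10.75 and 10.94 with low GenX, where the low-dose groups overlapped. Fabp3 read 6.39, 6.96 and 7.13, 6.33, 6.74 and 7.14 and 6.50, 6.53 and 6.70 in fetal control, low PFOA and low GenX, with overlap of all groups. None of these differences was tested.

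Lists with 0 genes called between the low-dose groups of dams had median differences of 0.15 for NRF2 targets (16 genes), 0.11 for bile acid synthesis (12), −0.35 for sulfotransferases (17), −0.25 for male-biased liver genes (17), −0.11 for complement and coagulation (38), −0.14 for the unfolded protein and integrated stress responses (18), 0.11 for glucose metabolism (14), 0.18 for the urea cycle and amino acid catabolism (21), 0.14 for nuclear receptors (13), 0.04 for growth hormone and IGF signalling (14), 0.09 for pericentral (13) and 0.02 for periportal genes (10). Female-biased liver genes had 1 of 18 called higher, Acot3, where 0.507% of all genes were, with a median of −0.15. Over all genes tested 0.621% were called in either direction, and the median difference was −0.03.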
